A study of Mus musculus with 50 samples.

Results

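The genes described here encode mitochondrial ribosomal proteins: the rows of the count table whose Ensembl identifier maps to a mouse symbol that starts with Mrpl or Mrps and goes on with a number and at most 1 letter. This rule gave 78 of the 52636 genes in the table, 49 with a large-subunit symbol (Mrpl) and 29 with a small-subunit symbol (Mrps), on 17 chromosomes. They are called the members below. The study measured RNA from whole mouse thyroids in 50 libraries, 10 groups of 5, each after a single intraperitoneal dose of antibodies that block Notch receptors or their ligands. All mice were male C57BL/6, aged from 10 weeks to 12 weeks in the series text and to 14 weeks in the treatment protocol, and no genetic change was described. The control antibody RW, an anti-ragweed isotype control, was given at 40 mg/kg. The antibody pair aJ1aJ2, against the ligands Jag1 and Jag2, was dosed at 20 mg/kg per antibody. For aN1aN2, which blocks Notch1 and Notch2, the doses were 5 and 10 mg/kg, and the trio aN1aN2aN3 added anti-Notch3 at 20 mg/kg. RW, aJ1aJ2 and aN1aN2 thyroids were taken at 15 hours and at 5 days. RW and aJ1aJ2 thyroids were taken at 7 days in a first set, and aJ1aJ2 and aN1aN2aN3 thyroids at 7 days in a second set, for which no RW library is analysed here. The series text also describes thyroid hormone injections, which the sample labels do not tie to any library.

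Mitochondria carry their own ribosomes, which translate only the few messenger RNAs encoded by mitochondrial DNA, all of them for subunits of the respiratory chain and of ATP synthase. The ribosomal RNAs come from mitochondrial DNA, whereas all of the ribosome's proteins are encoded in the nucleus, made in the cytosol and imported. The small subunit binds the messenger RNA and decodes it, and the large subunit forms the peptide bond. Tissues rich in mitochondria, such as muscle, heart and brown fat, hold much of this machinery. Thyroid hormone, the product of the gland, is known to raise mitochondrial activity in many tissues.

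Whole thyroids hold other cells, and the tissue around them can be carried along. The thyroid defining gene Tg took 0.450% to 42.4% of counts in the 40 libraries at 15 hours, 5 days and 7 days of the first set, and 1.15% to 6.50% in the 10 libraries of the second set. Total counts ranged from 15271242 to 52835846 per library. A list of 11 skeletal muscle markers took 0.0704% to 15.8% of counts in the 40 libraries and 0.0483% to 14.7% in the second set. In bulk tissue, fewer cells of a type and less RNA per cell cannot be told apart. No label says that replicates share a litter or a day, and p-values measure the spread between these libraries.

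Levels of members relative to one another were set side by side in CPM (counts per 1000000 scaled library counts) per kilobase of the longest coding transcript, in the RW group at 7 days. The median member stood at 12.6 CPM per kb. Mrps6 was highest at 88.6 ± 25.6 CPM per kb (SD, n = 5), followed by Mrpl52 at 71.3 ± 21.5 CPM per kb, and the ranges of these neighbours overlapped. Mrps6 shares 464 exon bases with 2 genes on the same strand, and 1 of them, Slc5a3, the sodium myo-inositol cotransporter, had 294320 counts over the 50 libraries against 145975 for Mrps6. Mrpl42 held rank 4 at 39.0 ± 7.56 CPM per kb. Mrpl54 stood at 45.8 ± 10.9 CPM per kb, Mrpl34 at 38.0 ± 6.93, Mrpl28 at 36.6 ± 8.16 and Mrps34 at 33.3 ± 6.08. Each of these overlapped the next named within their SDs, and Mrpl33, Mrps24 and Mrpl20 lay between Mrpl28 and Mrps34. Mrpl54, Mrpl34, Mrpl28 and Mrps34 were named for their FPKM. With Mrpl43, at 18.0 ± 2.36 CPM per kb, they held the top 5 places by the deposited FPKM, led by Mrpl34 at 31.8 FPKM and Mrps34 at 28.3 FPKM. That order differs because the deposited FPKM divide by the length of the gene with its introns: the length they imply was within 5% of the gene's span for 90.7% of 21618 genes and within 5% of its exon length for 3.52%. Mrps28, the fourth from the bottom by FPKM at 0.175 FPKM, was accordingly at 25.0 ± 7.33 CPM per kb. Mrpl48, next to it at 0.218 FPKM, was at 2.93 ± 0.461 CPM per kb.

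The other 3 lowest members had almost no reads of their own. Mrpl53 had 0 counts in all 50 libraries, and 695 of its exon bases also belong to Gm42688 on the same strand, which had 2722 counts. Mrpl23 had 461 counts over 50 libraries against 5226 for the row of its pseudogene Mrpl23-ps1. Mrps36 had 262 counts against 226 for Mrps36-ps2. For these 3 the split between the gene and its near-identical or overlapping neighbour is uncertain, and the values of Mrpl23 and Mrps36 are given as such. Over all members, 33 share exon bases with another gene, 8 of them on the same strand. The labels do not say that counting used strand.

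**Figure D1:**
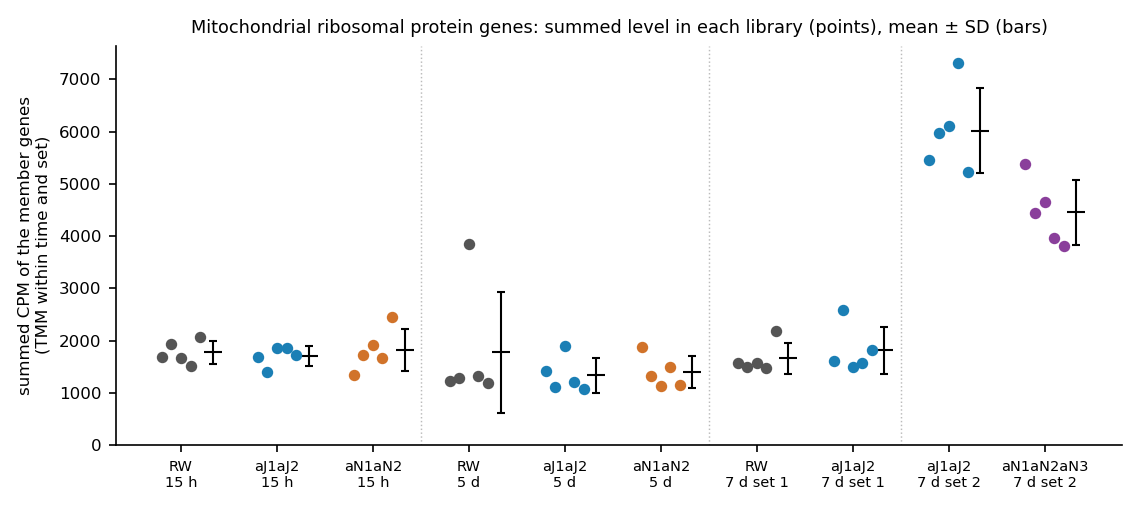
Summed CPM of the 78 members in each library (points, replicates 1 to 5 from left to right) with the group mean ± SD, scaled by TMM within each time and set, so that heights are comparable only between groups not separated by a dotted line. The RW library of replicate 3 at 5 days stands at 3845 CPM above the other 4 RW libraries of that time, and the aN1aN2aN3 group lies lower than aJ1aJ2 of the second set, with 1 library inside its range.

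The comparison of the second 7-day set asks how blocking 3 Notch receptors differs from blocking the 2 Jagged ligands at the same time. The members' summed level on the TMM scale was lower after aN1aN2aN3 than after aJ1aJ2, at 4452 ± 621 CPM (SD, n = 5) against 6014 ± 812 CPM. By library it was 5377, 4448, 4660, 3958 and 3818 CPM after aN1aN2aN3 and 5455, 5975, 6106, 7312 and 5221 CPM after aJ1aJ2. Of 77 members tested, 29 fell and 0 rose (edgeR quasi-likelihood test, Benjamini-Hochberg adjusted p below 0.05). Over all 18450 genes tested 19.6% were called: 10.4% of the genes fell and 9.19% rose, and 37.7% of the members fell. At an unadjusted p below 0.05 there were 46 members, or 59.7% of those tested beside 35.6% of all genes. The members' median log2 fold change was -0.51 beside -0.07 for all genes, and 70 of the 77 members had a negative value. With total counts in place of TMM scaling the median was -0.40 beside 0.04 for all genes. Large-subunit symbols gave 20 of the 29 calls, out of 48 tested with a median of -0.52. Small-subunit symbols gave 9 calls out of 29 tested, with a median of -0.33. Whether the subunits differ was not tested.

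The decrease was deepest for a mixture of conserved and mitochondria-specific proteins. Mrps21, a small-subunit protein with a bacterial homologue, was at 20.6, 19.2, 29.3, 38.6 and 22.7 CPM in the 5 aJ1aJ2 libraries and at 17.3, 9.71, 9.99, 8.83 and 7.04 CPM in the 5 aN1aN2aN3 libraries. All 5 aN1aN2aN3 values lay below the lowest aJ1aJ2 value, and the log2 fold change was -1.30 ± 0.27 (SE, edgeR adjusted p = 0.00831). Mrpl42, found only in mitochondrial ribosomes and once assigned to the small subunit, was at 177, 189, 221, 435 and 198 CPM after aJ1aJ2 and at 174, 87.9, 104, 73.3 and 71.8 CPM after aN1aN2aN3. Replicate 4 was high in the first group and replicate 1 in the second, the groups only just failed to meet, and the log2 fold change was -1.26 ± 0.31 (edgeR adjusted p = 0.0175).

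Mrps33, a small-subunit protein specific to mitochondria, was at 9.10, 12.8, 13.2, 11.9 and 13.4 CPM after aJ1aJ2 and at 7.43, 5.94, 6.32, 5.10 and 4.94 CPM after aN1aN2aN3. Its groups did not overlap, and the log2 fold change was -1.02 ± 0.19 (edgeR adjusted p = 0.00487). Mrps14, a conserved protein of the small subunit, was at 125, 118, 158, 151 and 166 CPM after aJ1aJ2 and at 89.2, 66.6, 83.5, 58.0 and 70.9 CPM after aN1aN2aN3. Its groups did not overlap, with a log2 fold change of -0.96 ± 0.17 (edgeR adjusted p = 0.00333, the smallest of the members). Mrps22, mitochondria-specific and mutated in an inherited disease of mitochondrial translation, was at 40.0, 43.4, 45.9, 37.4 and 27.9 CPM after aJ1aJ2 and at 22.9, 20.2, 16.7, 21.8 and 18.5 CPM after aN1aN2aN3. Again no library of one group reached the other, with a log2 fold change of -0.96 ± 0.17 (edgeR adjusted p = 0.00365).

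Other members with a decrease of similar size were less even between libraries. Mrpl33, a small conserved protein of the large subunit, was at 143, 142, 174, 229 and 489 CPM after aJ1aJ2 and at 146, 89.6, 119, 92.6 and 87.4 CPM after aN1aN2aN3. Its groups overlapped, replicate 5 of aJ1aJ2 stood far above the rest, and the log2 fold change of -1.14 ± 0.34 (edgeR adjusted p = 0.0348) was -0.68 without that library. Without both muscle-rich libraries it was -0.48 and no longer called (edgeR adjusted p = 0.0512), and the call was also lost without aN1aN2aN3 replicate 2, 3, 4 or 5, with adjusted p of 0.0846, 0.0698, 0.0768 and 0.086. Mrps28, of the small subunit, was at 106, 108, 120, 167 and 80.1 CPM and at 87.1, 52.4, 53.8, 49.6 and 43.5 CPM. Only aN1aN2aN3 replicate 1 exceeded any aJ1aJ2 library, and the log2 fold change was -1.02 ± 0.23 (edgeR adjusted p = 0.0112). Mrpl36, another small conserved protein of the large subunit, went from 104 ± 19.4 to 54.5 ± 19.8 CPM (SD, n = 5 each), with overlapping groups. It fell by 0.94 on the log2 scale, and the call was lost without aN1aN2aN3 replicate 3 or 4 (edgeR adjusted p = 0.0608 and 0.053).

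Mrpl12, which forms the stalk of the large subunit that recruits translation factors, was at 63.1, 81.8, 62.1, 124 and 55.8 CPM after aJ1aJ2 and at 50.7, 44.7, 39.4, 36.6 and 30.9 CPM after aN1aN2aN3. The groups did not overlap, and it fell by 0.93 ± 0.23 on the log2 scale (edgeR adjusted p = 0.0163). Mrpl35, a conserved large-subunit protein, went from 111 ± 16.1 to 59.6 ± 13.6 CPM with no overlap and fell by 0.89. In all, 9 members were lower without overlap, 11.7% of those tested beside 7.14% of all genes. Each of the 29 called members was below the aJ1aJ2 median in 5 of 5 aN1aN2aN3 libraries. They were called for being lower in these same libraries, so that this adds no separate support. The smallest of the 29 decreases was that of Mrpl17, at -0.51.

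**Figure D2:**
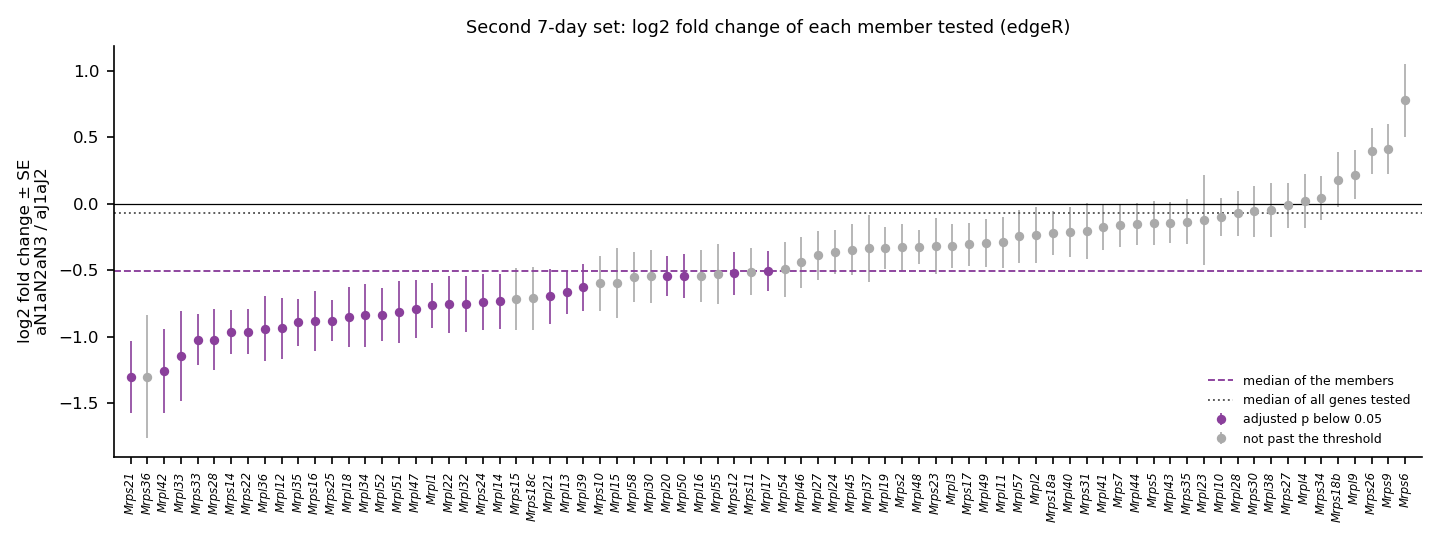
Log2 fold change of aN1aN2aN3 over aJ1aJ2 (edgeR, ± SE) for each of the 77 members tested in the second 7-day set, in order of size; purple points passed an adjusted p of 0.05. The 29 called members are all negative, the dashed line marks the members' median at -0.51 and the dotted line that of all genes at -0.07.

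At the other end, the members with the highest values did not pass the test. Mrps6, of the small subunit, was at 316, 325, 346, 118 and 181 CPM after aJ1aJ2 and at 429, 478, 470, 380 and 447 CPM after aN1aN2aN3. Every aN1aN2aN3 library was above every aJ1aJ2 library, as for 7.84% of all genes, and aJ1aJ2 replicates 4 and 5 were low, with a log2 fold change of 0.78 ± 0.27 (edgeR adjusted p = 0.0626). Its overlapping neighbour Slc5a3 rose by 1.39 ± 0.31 on the log2 scale (edgeR adjusted p = 0.0106). DESeq2 and limma voom called Mrps6 higher, with adjusted p of 0.0295 and 0.0436. Mrps9, a conserved small-subunit protein, was at 33.4, 36.8, 37.0, 48.9 and 23.3 CPM and at 45.9, 43.0, 55.7, 44.3 and 49.7 CPM, overlapping, with a log2 fold change of 0.41 ± 0.19 (edgeR adjusted p = 0.133). Mrps26 and Mrpl9 had log2 fold changes of 0.40 and 0.22.

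**Figure D3:**
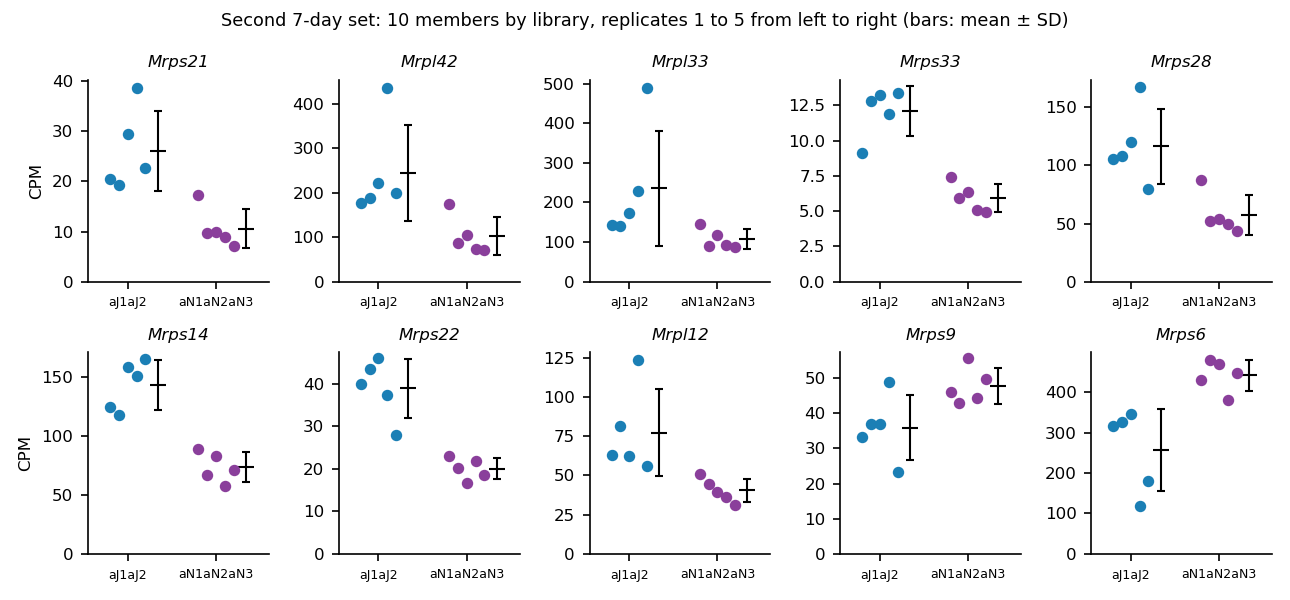
CPM of 10 members in the 10 libraries of the second 7-day set, replicates 1 to 5 from left to right within each group, with mean ± SD; each panel has its own axis from 0. In Mrps21, Mrpl42, Mrps33, Mrps14, Mrps22 and Mrpl12 the groups do not overlap and aN1aN2aN3 is lower, in Mrpl33, Mrps28 and Mrps9 they overlap, and in Mrps6 aN1aN2aN3 is higher.

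Several symbols do not match where the protein works. Mrps30 and Mrps18a carry small-subunit symbols but sit in the large subunit, and neither passed the test, with log2 fold changes of -0.06 ± 0.19 and -0.22 ± 0.16. Mrps18a, Mrps18b and Mrps18c are 3 relatives of a single bacterial protein: Mrps18b was at 0.18 ± 0.21, and Mrps18c, at -0.71 ± 0.24, narrowly missed the threshold (edgeR adjusted p = 0.0525). Mrpl58, a peptidyl-tRNA hydrolase that frees stalled mitochondrial ribosomes, was at -0.55 ± 0.19 (edgeR adjusted p = 0.0566). Mrps36, now counted as a part of the 2-oxoglutarate dehydrogenase complex, was at -1.30 ± 0.46 on 79 and 43 counts per group (edgeR adjusted p = 0.0659).

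The number of called members depended on single libraries: it was 19 and 17 without replicate 2 or 3 of aJ1aJ2, and 13, 13, 12 and 13 without replicate 2, 3, 4 or 5 of aN1aN2aN3. It rose to 42 without replicate 5 of aJ1aJ2, to 35 without replicate 1 of aN1aN2aN3, and to 30 without replicate 4 of aJ1aJ2, where 26 fell and 4 rose. The count over all genes moved as well, from 2042 to 4305 in these fits beside 3614 with all libraries. All 29 stayed negative in every fit run, though these fits reuse the libraries in which they were called. Of the 29, 12 were called in each of the 10 fits that left out 1 library, and 11 in every fit. Without scaling factors 18 members fell and Mrps26 rose, and over all genes 1815 rose and 1198 fell in place of 1696 and 1918.

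The proportions of other tissues also differed between the groups of the second set. The summed share of 8 brown fat markers was 0.119% to 0.305% of counts after aJ1aJ2 and 0.0120% to 0.0840% after aN1aN2aN3, and 6 of 8 markers fell, with a median log2 fold change of -2.89. Otop1 fell by 3.99 ± 0.75 and Elovl3, a fatty acid elongase, by 3.49 ± 1.01, and no brown fat marker was at 0 in any library. Of 6 general adipocyte markers 3 fell (median -2.19), with summed shares of 0.259% to 0.384% and 0.0268% to 0.127%. The muscle list spread from 0.0483% to 14.7% after aJ1aJ2 and from 0.833% to 4.15% after aN1aN2aN3, and 0 of its 11 genes passed the edgeR test. Tg was at 1.15% to 2.82% and at 3.73% to 6.50%, and it rose by 1.31 ± 0.31. Among 5 C cell markers 3 rose (median 1.22). Over both groups together, parathyroid markers took 0.0119% to 7.71% of counts, with a median of 3.52%. The part of fat markers, C cell markers, parathyroid markers and Tg in the members' decrease was not tested. Without the 2 libraries above 5% muscle counts, aJ1aJ2 replicates 4 and 5, the members' median was -0.45, and 41 of 77 members fell and 4 rose, 26 of them among the 29. In that fit 58.4% of the members and 35.5% of all 19222 genes tested were called, and 15.8% of the genes fell and 19.7% rose.

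Some genes that work with the mitochondrial ribosome were called too. Over all genes tested 10.4% fell and 9.19% rose, with a median of -0.07. Whether the lists below differ from all genes was not tested. The 5 ribosomal proteins that have other symbols had a median of -0.69, and 3 fell: Chchd1 by 1.22 ± 0.31, Ptcd3 by 0.81 ± 0.21 and Gadd45gip1 by 0.69 ± 0.18. Of 13 translation factors 3 fell (median -0.41): Taco1, a translational activator of the cytochrome oxidase messenger, by 1.45 ± 0.30, Mtif2, an initiation factor, by 0.83 ± 0.19, and Mrrf, the recycling factor, by 0.51 ± 0.16. Among 22 ribosome assembly genes 3 fell, namely Fastkd2, Mettl15 and Mterf3, with values of -1.03, -0.66 and -0.47, and Rpusd4, a pseudouridine synthase, rose by 0.68 (median of the list -0.12). Of 17 mitochondrial tRNA synthetases Yars2 fell by 0.58 and Iars2 rose by 0.48. In the list of 13 genes for transcription and RNA handling in mitochondria only Pnpt1, an RNA-degrading enzyme, passed the test, and fell by 0.71.

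The messenger RNAs made from mitochondrial DNA had a lower median than the members (-0.51), and this difference was not tested. All 10 mitochondrial messenger RNAs tested fell (median -1.67), as did both ribosomal RNAs, mt-Rnr1 by 2.24 ± 0.66 and mt-Rnr2 by 2.69 ± 0.76. Together the ribosomal RNAs took only 0.00224% to 0.0742% of counts in the libraries of the second set. Their values therefore rest on a small and uneven share of reads. The highest of the messengers, mt-Cytb, was at 11668 ± 3543 CPM after aJ1aJ2 and at 4176 ± 1712 CPM after aN1aN2aN3 (SD, n = 5 each), and fell by 1.48 ± 0.32. The summed share of the 13 messengers was 2.01% to 3.55% and 0.701% to 1.72% of counts, without overlap. Of 10 regulators of mitochondrial gene expression, Esrra, a nuclear receptor, fell by 1.10 ± 0.33 and Myc, a transcription factor, rose by 1.25 ± 0.28. Nrf1, which binds promoters of many mitochondrial genes, was at 0.52 ± 0.18 (edgeR adjusted p = 0.0558), and Gabpa, the DNA-binding subunit of the ETS factor GABP, at -0.15 ± 0.15.

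Promoters are shown because many members moved together in the second set. RefSeq's promoter table for GRCm38.p6 (250 bases before to 50 after each start) was used without the entries of 1 chromosome. What remained held 69 of the 78 members among 27025 genes. The letters CCGGAAG, which ETS factors bind, were found on either strand in 26 of these 69, or 37.7%, beside 9.93% of all genes in the table. Among members that fell it was 13 of 27, and among members tested and not called 12 of 41. The other motifs were searched on both strands too. The palindromic NRF1 site was in 4.35% beside 1.07% of all genes, and the long YY1 site in 7.25% beside 0.755%. ATGGCG, the core that lies within the long YY1 site, was in 27.5% beside 10.2%, CCAAT, bound by NF-Y, in 39.1% beside 41.1%, and GGGCGG, bound by SP1, in 49.3% beside 38.2%. The last 100 bases before the start of 4 members, none over an annotated exon, show the range, with CCGGAAG or its reverse complement in capitals, 5′ to 3′ on the gene's own strand. Mrps22 and Mrpl52 fell and hold 1 copy each, Mrps14 fell and holds none, and Mrpl43, at -0.14 and not called, holds 2.
Mrps22 (chr9:98601680-98601779, minus strand): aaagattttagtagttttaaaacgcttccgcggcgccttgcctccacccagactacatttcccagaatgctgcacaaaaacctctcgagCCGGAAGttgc
Mrpl52 (chr14:54426809-54426908, plus strand): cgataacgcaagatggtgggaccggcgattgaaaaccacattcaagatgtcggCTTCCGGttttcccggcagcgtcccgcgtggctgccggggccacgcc
Mrps14 (chr1:160195115-160195214, plus strand): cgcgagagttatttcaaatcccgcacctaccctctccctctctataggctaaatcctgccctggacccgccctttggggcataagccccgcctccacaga
Mrpl43 (chr19:45006443-45006542, minus strand): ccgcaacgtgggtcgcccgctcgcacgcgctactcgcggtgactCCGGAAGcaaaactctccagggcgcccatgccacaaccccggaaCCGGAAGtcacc
The copy in Mrps22 starts 11 bases before the annotated start, that in Mrpl52 47 bases before it on the reverse strand, and those in Mrpl43 12 and 56 bases before it. A match describes the letters and is not shown here to be a binding site.

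At 5 days, 0 members passed the test in either comparison, although nearly all values were negative. After aJ1aJ2 the members' median log2 fold change from RW was -0.40 beside -0.06 for all genes, and 76 of 76 members were negative. After aN1aN2 it was -0.35 beside -0.07, and 74 of 76 were negative. With total counts in place of TMM scaling the medians were -0.06 for each, beside 0.16 and 0.11 for all genes, and with limma voom -0.23 and -0.16. These comparisons share the 5 RW libraries. Over all 18434 genes, 0.179% were called after aJ1aJ2 and 0.0% after aN1aN2 (edgeR). At an unadjusted p below 0.05 there were 2 and 1 members, beside 11.8% and 10.0% of all genes. DESeq2 and limma voom also called 0 members in both comparisons. For aJ1aJ2, DESeq2 called 522 of all genes and limma voom 33. For aN1aN2, where edgeR and limma voom called 0 genes of any kind, 1848 had an unadjusted p below 0.05 and DESeq2 called 402.

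The pattern rested on 1 RW library. The summed level of the members was 1230, 1279, 3845, 1330 and 1178 CPM in the RW libraries, 1417, 1115, 1886, 1208 and 1064 CPM after aJ1aJ2 and 1884, 1323, 1134, 1494 and 1158 CPM after aN1aN2. RW replicate 3 was also the highest in single members. Mrpl42 was at 20.8, 20.1, 203, 27.5 and 15.5 CPM in the RW libraries and at 31.0, 18.1, 70.8, 18.9 and 16.0 CPM after aJ1aJ2. Mrps14 was at 17.5, 18.3, 58.4, 20.5 and 16.9 CPM and at 18.9, 14.3, 22.2, 15.2 and 12.2 CPM, and after aN1aN2 at 24.6, 17.4, 14.6, 19.5 and 14.4 CPM. The groups overlapped for both genes. In RW replicate 3 the muscle list took 15.8% of counts, against 0.151% to 1.38% in the other 4 RW libraries, mitochondrial messengers took 10.6%, and Tg 0.450%. Without this library the medians were 0.09 for aJ1aJ2 and 0.17 for aN1aN2. Without all libraries above 5% muscle counts they were -0.06 and -0.05, with 0 members called in either comparison. Over all 18542 genes tested, that fit called 1600 after aJ1aJ2 and 182 after aN1aN2.

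The members with the most extreme values at 5 days did not pass the test. Mrps21 had log2 fold changes of -0.89 ± 0.57 after aJ1aJ2 and -0.66 ± 0.57 after aN1aN2, and Mrpl42 of -0.89 ± 0.74 after aJ1aJ2. Mrpl51, a large-subunit protein, was at -0.65 ± 0.47 after aN1aN2. The highest were Mrps26 at -0.01 ± 0.27 and Mrps9 at -0.05 ± 0.44 after aJ1aJ2, and Mrpl23 at 0.11 ± 0.49 and Mrps2, a conserved small-subunit protein, at 0.01 ± 0.21 after aN1aN2. Mrps6 went the other way across libraries, at 56.7, 81.5, 26.2, 50.9 and 69.3 CPM in the RW group, lowest where the other members were highest. After aJ1aJ2 it was at 50.3, 54.7, 15.0, 61.3 and 47.5 CPM, again lowest in replicate 3, whose muscle share was 11.2%.

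**Figure D4:**
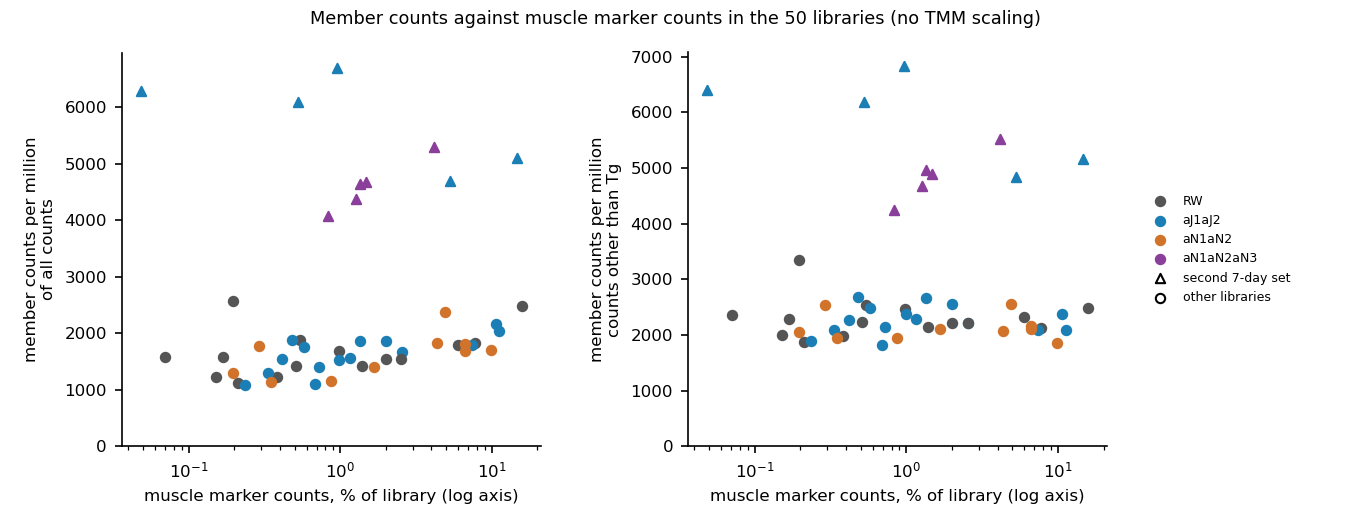
Member CPM over all counts (left) and over counts other than Tg (right) against the share of 11 muscle markers, on a log axis, for the 50 libraries without TMM scaling. The second 7-day set (triangles, 4077 to 6689 on the left) lies above the other 40 libraries (1092 to 2579), and on the right those 40 lie between 1817 and 3347.

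Tg alone took up to 42.4% of counts. As unscaled CPM over counts other than Tg, the members stood at 1993, 1981, 2489, 2144 and 1878 in the RW libraries at 5 days, so that replicate 3 was above the others by a far smaller margin than on the TMM scale. The second set stood apart on either scale, at 4077 to 6689 unscaled CPM over all counts against 1092 to 2579 in the other 40 libraries, and at 4235 to 6822 against 1817 to 3347 without Tg. For aJ1aJ2 at 7 days, given in both sets, the members were at 4699 to 6689 unscaled CPM in the second set and 1523 to 2166 in the first. The antibodies, dose and time were the same and the set differed, so that these levels say nothing about treatment.

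At 7 days in the first set, 0 of 75 members passed the test after aJ1aJ2, and 63 of 75 were positive, with a median of 0.15 beside 0.01 for all genes. By edgeR and limma voom 0 of 16954 genes passed, or 0.0%, with 11.6%, or 1968, at an unadjusted p below 0.05, of which 0 were members, and DESeq2 called 417 genes and 0 members. The summed level was 1567, 1494, 1571, 1476 and 2179 CPM in the RW libraries and 1605, 2589, 1502, 1561 and 1812 CPM after aJ1aJ2. Replicate 5 was high in the RW group and replicate 2 in the aJ1aJ2 group, where the muscle list took 10.7% of counts. RW replicate 5 had a muscle share of 0.196% and the highest brown fat share of its group, 0.0716%. Mrpl42 was highest at 0.47 ± 0.31, at 26.4, 20.7, 30.4, 21.0 and 31.4 CPM in the RW libraries and at 24.0, 70.6, 22.2, 26.0 and 38.0 CPM after aJ1aJ2. Mrpl30, of the large subunit, was at 0.43 ± 0.24, and Mrpl57 and Mrpl52 were lowest at -0.16 ± 0.17 and -0.16 ± 0.18. Without aJ1aJ2 replicate 2 the median was -0.03, and with total counts it was 0.01 beside -0.09 for all genes.

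**Figure D5:**
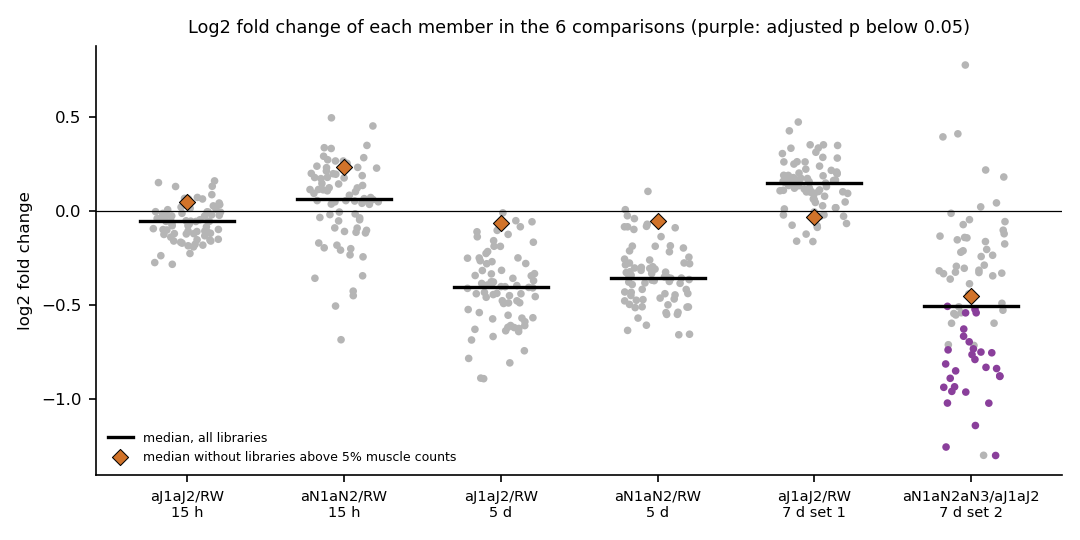
Log2 fold change of each member tested (points) in the 6 comparisons, with the members' median (line) and the median after leaving out libraries with over 5% muscle counts (diamond). The medians at 5 days move from -0.40 and -0.35 to -0.06 and -0.05, whereas that of the second 7-day set moves from -0.51 to -0.45; purple points, all in that set, passed an adjusted p of 0.05.

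At 15 hours the members differed little from the control. After aJ1aJ2, 0 of 75 members passed the edgeR test, beside 0.573% of all genes, and 0 had an unadjusted p below 0.05 beside 6.59% of all genes. Their log2 fold changes ran from -0.28 to 0.16 with a median of -0.05 beside -0.03 for all genes, and of 0.05 without libraries above 5% muscle counts. The outermost were Mrps28 at -0.28 ± 0.24, Mrpl18 at -0.27 ± 0.28, Mrps18b at 0.15 ± 0.14 and Mrps6 at 0.16 ± 0.27. Mrps14 was at 25.2, 24.1, 25.0, 21.7 and 27.6 CPM in the RW libraries, at 24.7, 20.5, 28.0, 23.0 and 23.5 CPM after aJ1aJ2 and at 20.1, 22.4, 25.2, 24.8 and 35.6 CPM after aN1aN2, and the 3 groups overlapped.

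After aN1aN2 at 15 hours, against the same RW libraries, 0 of 75 members passed beside 1.68% of all genes, 6 had an unadjusted p below 0.05 beside 14.4% of all genes, and the median was 0.07 beside 0.01, and 0.23 without libraries above 5% muscle counts. Mrpl22, a conserved large-subunit protein, came nearest, at 3.51, 3.43, 3.70, 3.24 and 3.30 CPM in the RW libraries and at 4.19, 4.54, 4.73, 4.63 and 6.18 CPM after aN1aN2. It was the only member whose groups did not overlap, beside 5.23% of all genes in either direction and 2.63% higher. Its log2 fold change was 0.50 ± 0.13 (edgeR adjusted p = 0.0779). DESeq2 called 1 of the 75 members, beside 842 of all 18126 genes it tested. Mrpl57, found only in mitochondrial ribosomes, was at 31.2, 22.5, 25.0, 28.8 and 20.1 CPM and at 15.1, 9.70, 17.0, 23.7 and 13.9 CPM, overlapping, with a log2 fold change of -0.68 ± 0.23 (edgeR adjusted p = 0.168). Mrpl52 was at -0.50 ± 0.24 and Mrps25 at 0.45 ± 0.16. The aN1aN2 libraries of this time carry sample identifiers from the series of the 5-day libraries, whereas RW and aJ1aJ2 do not, so that identifier series and treatment cannot be told apart. Also in this comparison 5 of 5 liver markers fell and 4 of 13 mitochondrial messengers rose, mt-Co2 by 2.85 ± 0.42. After aJ1aJ2, 4 of the 5 liver markers fell.

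The effect of aJ1aJ2 was also compared between times. For 5 days minus 15 hours 0 of 76 members passed beside 0.636% of all genes, with 3 at an unadjusted p below 0.05 beside 11.2%, and a median of -0.36. That median was 0.08 without RW replicate 3 of 5 days, -0.12 without muscle-rich libraries and -0.03 with total counts. Mrps21 was lowest at -0.92 ± 0.63 and Mrps18b next at -0.79 ± 0.29 (edgeR adjusted p = 0.241), and Mrpl57 and Mrps9 were highest at 0.03 ± 0.29 and 0.13 ± 0.49. For 7 days in the first set minus 15 hours 0 of 75 passed beside 0.314% of all genes, with 0 at an unadjusted p below 0.05 beside 10.9%, and a median of 0.15. It was -0.10 without muscle-rich libraries and 0.01 with total counts. Mrpl42 at 0.66 ± 0.47 and Mrpl1, a conserved large-subunit protein, at 0.48 ± 0.29 were highest, and Mrps6 at -0.27 ± 0.41 and Mrpl52 at -0.18 ± 0.30 were lowest. DESeq2 and limma voom called 0 members in both. Over all genes edgeR called 123 and 58, DESeq2 485 and 378, and limma voom 74 and 0.

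Within groups, most members moved together from library to library. Over the 50 libraries, with group means removed, a member's log2 CPM had a median Pearson r of 0.91 with the mean of the other members, where the points share libraries and scaling. Mrpl51, Mrpl11, Mrpl55, Mrpl12 and Mrps7 followed the mean most, at 0.98, 0.98, 0.98, 0.97 and 0.97. The weakest were Mrps36 at 0.53, Mrpl23 at 0.45, Mrpl52 at 0.43, Mrpl57 at 0.09 and Mrps6 at -0.55. Among all other genes the 10 most alike were Cox4i1, Vdac2, Phb, Ndufs8, Ndufb10, Tmem147, Ndufa12, Stoml2, Ndufv3 and Park7, at 0.97 to 0.98, most of them known mitochondrial proteins and several of them respiratory chain subunits. The muscle list had a median r of 0.70 with the members' mean, mitochondrial messengers 0.82 and thyrocyte markers -0.78, and for all 21469 other genes the median was -0.04.

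Members called in the second set had somewhat shorter transcripts. Their median length was 1197 bases (n = 29), beside 1404.5 bases for members tested and not called (n = 48) and 2960 bases for all 14346 coding genes tested. The ranges overlapped widely, at 418 to 7300 and 604 to 5061 bases for called and uncalled members. Shorter genes tended lower in general: log2 fold change and length had a Spearman correlation of 0.17 over all coding genes and 0.24 over members. Of the 29, 18 share no exon base with another gene, 8 overlap a gene on the opposite strand and 3 a gene on the same strand. Among neighbours of called members, Ndufs6, which overlaps Mrpl36 on the opposite strand, fell by 1.21 ± 0.27. Gm16755, which overlaps Mrpl12 on the opposite strand, fell by 0.73 ± 0.22. It had 1401 counts over the 50 libraries against 35920 for Mrpl12.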

How the data were processed

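The deposited table holds read counts per gene and FPKM for 50 thyroid libraries, single-end reads of 50 bases per the labels. The submitters' processing notes name GSNAP and limma. No source used here gives the build, annotation, counting tool or strand setting. The FPKM deposited by the authors were used only for 1 ordering of levels. The deposited counts were used as they stand, with 0 columns left unassigned.

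Counts were tested with edgeR 4.0.16 (R 4.3.3): TMM scaling, filterByExpr (minimum count 10, minimum total 15), robust quasi-likelihood F-test, two-sided, Benjamini-Hochberg adjustment over all genes tested, threshold 0.05. The 15-hour groups were fitted together, as were the 5-day groups; each 7-day set was fitted alone, and the differences between times over 30 and 20 libraries. CPM (counts per 1000000 counts) use the TMM scale of each time and set. Alternatives were other size factors, no filter, DESeq2 1.42.0, limma voom 3.58.1, a replicate block, 2 groups only, leaving out each library, and, chosen after seeing the data, total counts without scaling factors and leaving out libraries above 5% muscle counts.

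The members and gene lists were chosen with earlier results of these data known. Symbols came from GENCODE M21 and matched 52403 of 52636 identifiers. Lengths and overlaps are those of GENCODE M21 and promoter letters those of RefSeq. Named members are, in each comparison, up to 10 called members with the largest change in each direction or, with under 4 called, the 2 highest and 2 lowest, plus the 5 highest and 5 lowest by FPKM, the 5 that follow the member mean most and least, and members whose symbol misleads. Mrps6, Mrpl52, Mrps9, Mrps26, Mrpl9 and Mrpl43 were also named after their values were seen where no rule named them. The procedure was tested on simulated counts of 18259 genes modelled on the second set: 88% of changes of 2 and 24% of changes of 1 on the log2 scale were recovered. For aJ1aJ2 at 5 days, on 18163 genes, 58% and 5% were recovered. False calls were 6 of 118 and 1 of 64. Each simulation changed 200 genes, whereas 3614 and 33 genes were called in the data, so these shares need not hold there.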

Additional observations from a re-analysis of the deposited data

Results flagged for a closer look

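In groups of 5, a highest or lowest library was singled out when its gap to the next, as a share of the group's range, exceeded Dixon's critical value, which chance gives in about 1 of 20 groups. This was checked for the summed level in 10 groups and for 46 values of named members in a group. In 13 of these a library stood apart, each time as the highest. Those groups share libraries and are not independent.

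The summed level of the members stood out in RW replicate 3 at 5 days (3845 CPM), RW replicate 5 at 7 days of the first set (2179 CPM) and aJ1aJ2 replicate 2 at 7 days of the first set (2589 CPM). The same 5-day library was highest for Mrpl42 (203 CPM) and Mrps14 (58.4 CPM), RW replicate 5 at 7 days for Mrps14 (25.4 CPM), and aJ1aJ2 replicate 3 at 5 days for Mrpl42 (70.8 CPM). In the second set it was aN1aN2aN3 replicate 1 for Mrps21 (17.3 CPM) and Mrps28 (87.1 CPM), aJ1aJ2 replicate 4 for Mrpl42 (435 CPM) and aJ1aJ2 replicate 5 for Mrpl33 (489 CPM). At 15 hours Mrpl22 stood out in aJ1aJ2 replicate 3 (3.55 CPM) and aN1aN2 replicate 5 (6.18 CPM). The muscle list took 15.8%, 11.2%, 10.7% and 14.7% of counts in RW replicate 3 and aJ1aJ2 replicate 3 at 5 days, aJ1aJ2 replicate 2 at 7 days of the first set and aJ1aJ2 replicate 4 of the second set; its part in these values was not tested.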

How the results depend on the processing

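The 29 members that fell in the second 7-day set were negative in every fit, where the fits reuse the libraries in which they were called. The count of called members was the value that moved: 19 with total counts without scaling factors, 45 without libraries above 5% muscle counts, 18 with the replicate block, and 12 to 42 with 1 library left out. In the other comparisons 0 members were called under any alternative, except 1 by DESeq2 after aN1aN2 at 15 hours. The cause of these shifts was not tested, apart from fewer libraries where some were left out.

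No label says that replicate numbers pair the samples. Same-numbered libraries of 2 groups had correlations from -0.54 to 0.72, and 8 of 30 pairs matched best with their own number. These values do not settle whether the samples were paired. With the replicate block, all genes called were 36 for aJ1aJ2 and 186 for aN1aN2 at 15 hours, 1 for aJ1aJ2 at 5 days, 2100 in the second 7-day set, and 44 and 26 for the differences of 5 days and of 7 days from 15 hours.

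Counts over all genes moved as follows, in the order aJ1aJ2 and aN1aN2 at 15 hours, aJ1aJ2 and aN1aN2 at 5 days, aJ1aJ2 at 7 days, and the differences of 5 and 7 days from 15 hours. DESeq2 gave 265, 842, 522, 402, 417, 485 and 378. Limma voom gave 62 for the first and 74 and 0 for the differences. No filter gave 9 for aJ1aJ2 at 5 days, 20 at 7 days and 27 and 38 for the differences. Total counts gave 16, 2, 46 and 37 for the same. Only 2 groups gave 48 for aJ1aJ2 at 15 hours and 0 at 5 days. Without muscle-rich libraries the counts were 1 for aJ1aJ2 at 15 hours, 1600 and 182 at 5 days, 12 at 7 days, 6824 in the second set and 0 for 7 days minus 15 hours. With 1 library left out they ran from 35 to 127 and 120 to 444 at 15 hours, 0 to 197 and 0 to 9 at 5 days, 0 to 20 at 7 days, 2042 to 4305 in the second set, and 20 to 271 and 6 to 146 for the differences.

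With 1 library left out the members' median ran from -0.08 to 0.02 and -0.05 to 0.18 at 15 hours, -0.55 to 0.09 and -0.49 to 0.17 at 5 days, -0.03 to 0.27 at 7 days, -0.59 to -0.35 in the second set, and -0.53 to 0.083 and 0.02 to 0.28 for the differences.

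Values of single members that changed sign were all of members not called. Without muscle-rich libraries these were Mrpl18 after aJ1aJ2 at 15 hours (0.0052), Mrpl42, Mrps9 and Mrps26 after aJ1aJ2 at 5 days (0.0010, 0.3679 and 0.2745), Mrpl23 after aN1aN2 at 5 days (-0.6651), Mrps30 in the second set (0.2225) and Mrpl42 for 7 days minus 15 hours (-0.0679). Total counts gave 0.3474 for Mrps9 and 0.3224 for Mrps26 at 5 days and 0.0998 for Mrps30. Limma voom gave 0.2144 for Mrps9, 0.1357 for Mrps26 and -0.1609 for Mrpl23, and the replicate block 0.1039, 0.0619 and -0.0022. No filter gave 0.0074 for Mrps26 and 0.0095 for Mrps30. Mrps2 after aN1aN2 at 5 days was at -0.0050 with DESeq2's size factors and -0.0038 with DESeq2.

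With 1 library left out, values after aJ1aJ2 at 5 days ran from -1.31 to 0.10 for Mrps21, -1.45 to 0.56 for Mrpl42, -0.34 to 0.66 for Mrps9 and -0.13 to 0.40 for Mrps26. After aN1aN2 they ran from -0.85 to 0.33 for Mrps21, -0.87 to 0.14 for Mrpl51, -0.077 to 0.22 for Mrps2 and -0.41 to 0.33 for Mrpl23. At 7 days they ran from -0.22 to 0.037 for Mrpl57 and -0.23 to 0.054 for Mrpl52, and in the second set from -0.13 to 0.17 for Mrps30. For 5 days minus 15 hours they ran from -1.34 to 0.016 for Mrps21, -0.079 to 0.14 for Mrpl57 and -0.16 to 0.80 for Mrps9, and for 7 days minus 15 hours from -0.33 to 0.038 for Mrpl52.

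Mrpl53, Mrpl23 and Mrps36 had 0, 461 and 262 counts over 50 libraries, so that their values rest on few reads. With the replicate block the adjusted p of Mrpl33 in the second set was 0.103 (edgeR).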
